A study of Rattus norvegicus with 4 samples.

Results

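Footprints of ribosomes on 10 genes for collagen-modifying and crosslinking proteins were compared between cultured rat heart cells with and without knockdown of the initiation factor subunit eIF3m. The 10 were chosen by gene symbol from 31038 rows. They are the prolyl 4-hydroxylase alpha subunits P4ha1, P4ha2 and P4ha3, the lysyl hydroxylases Plod1, Plod2 and Plod3, the lysyl oxidases Lox, Loxl1 and Loxl2, and the collagen chaperone Serpinh1. All 10 had a row in every library and enough counts to be tested, with deposited counts between 112 and 10570.

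The 4 libraries fell into 2 groups of 2. Cells of the siNT group received a control siRNA, and cells of the si3m group an siRNA against eIF3m. Both groups were grown in serum-containing medium and were given cycloheximide, which stalls ribosomes, before lysis. Per the labels' protocols, ribosomes were sedimented in a gradient, fractions holding monosomes and polysomes were concentrated separately, and RNA from them was made into libraries with a small RNA kit; which fraction a library came from is not given in the sources used here. The labels do not say if replicates were separate cultures. A p-value here reflects the spread of these libraries alone, and that spread may be technical. Levels of the messenger RNAs were not analysed here. Every value is therefore an abundance of footprints, in which more messenger RNA and more ribosomes per messenger RNA cannot be told apart.

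Collagen chains are modified in the endoplasmic reticulum before they fold. Prolyl 4-hydroxylase, a tetramer of alpha subunits and protein disulfide isomerase (P4hb), hydroxylates prolines and so makes the triple helix stable at body temperature. Lysyl hydroxylases modify lysines that later carry sugars or crosslinks, and Serpinh1 (HSP47) binds the folded helix on its way to the Golgi. Outside the cell, copper-dependent lysyl oxidases turn lysines and hydroxylysines of collagen and elastin into aldehydes, which form the crosslinks that stiffen the matrix of the heart and other tissues.

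Total counts were 3924434 and 3835750 in siNT and 8687598 and 6726969 in si3m, so depth differed with group. Levels are in CPM (counts relative to library size, with TMM factors unless the library total is named as the base). Eif3m, the gene targeted by the siRNA, stood at 532 and 451 CPM in siNT and at 138 and 191 CPM in si3m. It fell 3.01-fold (edgeR log2 fold change -1.59, SE 0.11, adjusted p = 3.41e-08). With robust quasi-likelihood, an edgeR option that gives outlying genes less weight, the adjusted p was 0.0522. The cells are labelled NRVM, a usual short form for neonatal rat ventricular myocytes, whereas the growth protocol names embryonic myocardium. Of 12 cardiomyocyte markers, Tnni3, Myl7 and Nppa had 0 counts in each library, and only Tnnt2 and Ttn had enough counts to be tested. The sum of all 12 was 44.0 to 54.2 CPM of the library total. That of 12 fibroblast markers was 8252 to 13190 CPM, and that of 6 smooth muscle markers 3218 to 3572 CPM. Col1a1, Col1a2 and Col3a1 held a mean of 6170 CPM of the fibroblast sum in siNT and 10175 CPM in si3m. Postn, Thy1, Ddr2, Vim and S100a4 had 432 to 8510 counts per library, and Pdgfra, Dcn, Lum and Tcf21 had 0 to 24. Acta2 and Tagln held most of the smooth muscle sum, whereas Myh11 had 12 to 62 counts and Des 6 to 34.

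Footprints rose for 5 of the 10 genes, fell for 1 and did not pass the test for 4. P4ha2, P4ha3, Lox, Loxl1 and Loxl2 were higher in si3m, and Plod3 was lower. The rises of P4ha3 and Loxl2 were close to 2-fold (1.995-fold and 2.02-fold), whereas that of Lox was 1.12-fold. P4ha1, Plod1, Plod2 and Serpinh1 did not pass. In all, 60.0% of the 10 genes passed, beside a background of 27.8% among the 12672 rows tested, with 14.0% higher and 13.9% lower. Of all calls, 50.2% were higher, or 39.2% with total count scaling. The groups did not overlap for 8 of the 10, 6 of them higher in si3m, beside 63.9% of all tested rows in either direction and 32.6% higher. The median log2 fold change was 0.12 for the 10 genes and 0.02 for all tested rows.

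**Figure D1:**
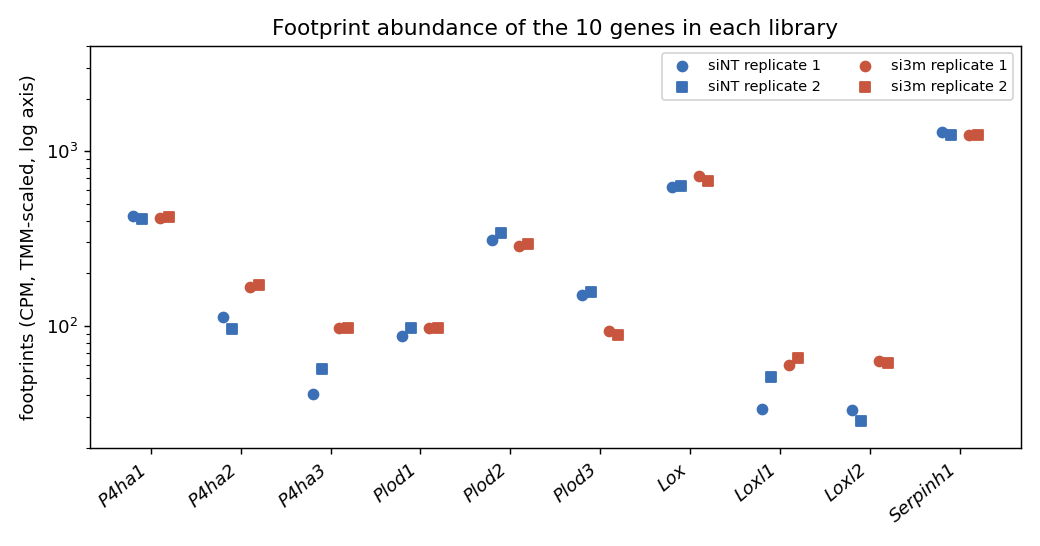
Footprint abundance (CPM, TMM-scaled, log axis) of each of the 10 genes in the 4 libraries, with 1 point per library, siNT in blue and si3m in red. P4ha2, P4ha3, Plod1, Lox, Loxl1 and Loxl2 have both si3m points above both siNT points, by a narrow margin for Plod1. Plod2 and Plod3 have both below, and the points of P4ha1 and Serpinh1 overlap.

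P4ha1 encodes the main catalytic subunit of prolyl 4-hydroxylase in most cells. It stood at 426 and 407 CPM in siNT and at 412 and 419 CPM in si3m. Both si3m values lay between the siNT values, and the log2 fold change was -0.01 (SE 0.055, 95% interval -0.12 to 0.11, edgeR adjusted p = 0.958). The sign of this value turned under 5 of 15 alternative settings, and the interval bounds a change in either direction at about 0.12 on the log2 scale.

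P4ha2, the second alpha subunit, had 112 and 96.0 CPM in siNT and 166 and 172 CPM in si3m. All si3m values were above all siNT values. Its abundance rose 1.63-fold, from 104 ± 11.3 to 169 ± 4.16 CPM (SD, n = 2 each; log2 0.70, SE 0.088, 95% interval 0.51 to 0.89, edgeR adjusted p = 2.11e-05).

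P4ha3, a further alpha subunit, had 40.8 and 56.9 CPM in siNT and 97.3 and 97.6 CPM in si3m. The siNT libraries differed from each other by more than the si3m libraries did, and the groups did not overlap. The rise was 1.995-fold (log2 0.996, SE 0.14, 95% interval 0.70 to 1.29, edgeR adjusted p = 6.45e-05). Its log2 fold change was above that of 93.1% of tested rows. Differences between the fold changes of paralogs were not tested; their intervals are given side by side.

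The makeup of the alpha subunit footprints differed between the groups. P4ha1 held 73.6% and 72.7% of the counts of the 3 genes in siNT and 61.0% and 60.8% in si3m (73.1% ± 0.665 and 60.9% ± 0.109, SD, n = 2 each). P4ha2 held 18.3% ± 1.54 in siNT and 24.8% ± 0.270 in si3m, and P4ha3 8.61% ± 2.21 and 14.3% ± 0.161 (SD, n = 2 each). For each of the 3 genes, the shares of the groups did not overlap. Shares of single libraries were given exact (Clopper-Pearson) 95% binomial intervals on fragments, taken as deposited counts divided by 2, which cover counting error only. The P4ha1 share ran from 69.9% to 75.2% in siNT replicate 2 and from 59.2% to 62.8% in si3m replicate 1. With 2 libraries against 2, an exact permutation test cannot give a p under 0.333, so the shares were not tested. They weight each gene by its length and are compared only between libraries.

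Sequences before the starts of these genes are shown because paralogs of 1 family differed in their calls, and because several members are known targets of hypoxia-inducible factors or of heat shock factor. RefSeq promoters (build GRCr8) were matched by symbol for 8 of the 10 genes, and the 250 bases before each start were searched on both strands. The hypoxia response core, ACGTG or GCGTG, matched in 5 of 8 (P4ha1, P4ha2, Plod1, Plod2 and Plod3), beside 36.7% of 33469 promoters of the same length. The GC box, GGGCGG, matched in 6 of 8 (P4ha2, P4ha3, Plod1, Plod2, Plod3 and Serpinh1), beside 30.5%. The core of the heat shock element, TTCNNGAA or GAANNTTC, matched in 4 of 8 (P4ha2, Plod1, Plod2 and Serpinh1), beside 13.55%. TATAAA and CCAAT had no match in the 8 windows. A match is a description of the letters only, and it was not tested whether any factor binds there.

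P4ha1 held 2 hypoxia response cores and P4ha2 held 5, shown in capitals, from chr20:27844796-27845045, plus strand, and chr10:38743644-38743893, plus strand (GRCr8, printed 5′ to 3′).
P4ha1: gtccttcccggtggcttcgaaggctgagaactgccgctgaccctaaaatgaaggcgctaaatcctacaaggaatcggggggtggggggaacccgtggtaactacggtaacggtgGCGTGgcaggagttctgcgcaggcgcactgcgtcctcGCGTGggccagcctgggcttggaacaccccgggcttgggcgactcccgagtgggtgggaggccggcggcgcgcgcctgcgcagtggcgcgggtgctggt
P4ha2: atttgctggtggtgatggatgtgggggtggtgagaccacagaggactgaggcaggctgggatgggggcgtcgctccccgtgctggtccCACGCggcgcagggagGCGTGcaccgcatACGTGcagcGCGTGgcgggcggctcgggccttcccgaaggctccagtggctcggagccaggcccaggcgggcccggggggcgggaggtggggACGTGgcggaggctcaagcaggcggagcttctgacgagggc

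P4ha3 held no such core but 6 GC boxes, 2 of which overlap, shown in capitals, from chr1:164040614-164040863, plus strand (GRCr8). The promoter of P4ha2 also held 2 GC boxes, which are not in capitals above.
P4ha3: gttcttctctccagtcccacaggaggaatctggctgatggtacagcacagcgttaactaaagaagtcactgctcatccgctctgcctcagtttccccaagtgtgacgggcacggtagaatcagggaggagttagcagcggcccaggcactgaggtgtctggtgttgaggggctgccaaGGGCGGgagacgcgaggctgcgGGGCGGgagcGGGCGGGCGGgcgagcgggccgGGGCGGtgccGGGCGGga

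Plod1 (lysyl hydroxylase 1), which acts on lysines in the helix, had 87.4 and 96.5 CPM in siNT and 97.0 and 96.8 CPM in si3m. The si3m values lay above both siNT values by a margin smaller than the gap between the siNT libraries. The log2 fold change was 0.08 (SE 0.10, 95% interval -0.14 to 0.29, edgeR adjusted p = 0.620), and it was -0.0041 with total count scaling.

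Plod2 (lysyl hydroxylase 2) modifies lysines in the telopeptides, the ends outside the helix, and so sets the kind of crosslink that forms. It had 311 and 340 CPM in siNT and 288 and 294 CPM in si3m. Both si3m libraries were below both siNT libraries. The log2 fold change of -0.16 (SE 0.060, 95% interval -0.29 to -0.03) missed the threshold (edgeR adjusted p = 0.0577). It passed under 9 of 15 alternatives, including the replicate block (log2 -0.16, adjusted p = 0.0466), scaling by total counts (log2 -0.24, adjusted p = 0.00838) and leaving out siNT replicate 1 (log2 -0.22, adjusted p = 0.0101). Without siNT replicate 2 it was -0.09, with an adjusted p of 0.394. The adjusted p ran from 0.00838 to 0.394 over the alternatives.

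Plod3 (lysyl hydroxylase 3) also adds sugars to hydroxylysine and is known for its part in the assembly of collagens IV and VI. It had 149 and 157 CPM in siNT and 93.0 and 88.5 CPM in si3m, with a wide gap between the groups. It fell 1.68-fold, from 153 ± 5.59 to 90.8 ± 3.22 CPM (SD, n = 2 each; log2 -0.75, SE 0.085, 95% interval -0.93 to -0.57, edgeR adjusted p = 7.57e-06). In the GRCr8 annotation Plod3 overlaps Znhit1 and Mir702, which have rows of their own. Znhit1 had 10 and 18 counts in siNT and 64 and 52 in si3m, and Mir702 had 14, 2, 2 and 2 in the order of the libraries. Reads in the shared stretch are therefore uncertain, although Plod3 itself had 572 to 790 counts. P4ha1 likewise overlaps the pseudogene Snrpd2l, which had 6 to 42 counts. P4ha1 also overlaps an snRNA gene, and Lox overlaps the pseudogene Rps3a-ps12. Neither of these has a row of its own, so reads from them that fell in the rows of P4ha1 or Lox cannot be told apart.

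The promoter of Plod1 held 1 match to the hypoxia response core and that of Plod2 held 4. The promoter of Plod3 also held 1 match, in capitals, at chr12:25323632-25323881, minus strand (GRCr8).
Plod3: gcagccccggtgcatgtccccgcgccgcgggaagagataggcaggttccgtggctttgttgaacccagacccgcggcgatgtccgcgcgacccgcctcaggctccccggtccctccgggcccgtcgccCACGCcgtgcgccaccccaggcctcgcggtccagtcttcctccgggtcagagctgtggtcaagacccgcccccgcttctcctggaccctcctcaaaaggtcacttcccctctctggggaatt

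Within the lysyl hydroxylases, the Plod3 share of counts was 27.3% and 26.4% in siNT and 19.5% and 18.5% in si3m (26.8% ± 0.579 and 19.0% ± 0.691, SD, n = 2 each). Plod1 went from 16.1% ± 0.201 to 20.3% ± 0.0502 and Plod2 from 57.1% ± 0.378 to 60.8% ± 0.742 (SD, n = 2 each), and none of these shares overlapped between groups. The sum of the 3 genes was 585 ± 35.0 CPM of the library total in siNT, against 464 ± 5.10 CPM in the si3m libraries. For the 3 alpha subunits the sums were 584 ± 13.2 and 661 ± 1.14 CPM (SD, n = 2 each), so si3m was the lower group for one family and the higher for the other.

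**Figure D2:**
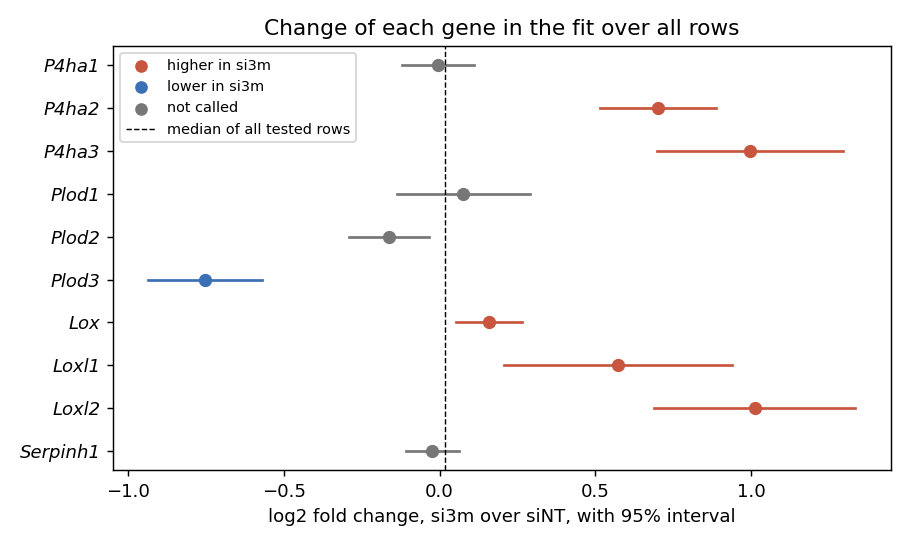
Log2 fold change of each gene, si3m over siNT, as a point with its 95% interval from the edgeR fit over all rows; red and blue mark genes that passed the test higher or lower, grey those that did not, and the dashed line the median of all tested rows. The intervals of P4ha2 (0.51 to 0.89) and P4ha3 (0.70 to 1.29) lie above that of P4ha1 (-0.12 to 0.11), and that of Plod3 (-0.93 to -0.57) lies below those of Plod1 and Plod2.

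Serpinh1 stood at 1292 and 1230 CPM in siNT and at 1245 and 1237 CPM in si3m. Both si3m values fell between the siNT values. Its log2 fold change was -0.02 (SE 0.040, 95% interval -0.11 to 0.06, edgeR adjusted p = 0.712), the narrowest interval among the 10 genes. Leaving out siNT replicate 1 turned the sign (log2 0.02).

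The promoter of Serpinh1, a gene known to respond to heat shock, held 2 overlapping matches to the heat shock element core, in capitals, within chr1:163062977-163063226, minus strand (GRCr8). That of Plod2 also held 2 matches, and those of P4ha2 and Plod1 held 1 each.
Serpinh1: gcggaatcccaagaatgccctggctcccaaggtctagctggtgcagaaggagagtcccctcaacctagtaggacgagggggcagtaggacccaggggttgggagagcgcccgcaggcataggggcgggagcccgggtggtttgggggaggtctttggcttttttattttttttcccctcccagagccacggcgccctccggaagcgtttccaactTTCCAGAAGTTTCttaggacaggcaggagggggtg

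Lox, the founding lysyl oxidase, had 620 and 629 CPM in siNT and 719 and 676 CPM in si3m. The groups did not overlap, but the gap between them was about as wide as that between the si3m libraries. It rose 1.12-fold (log2 0.16, SE 0.050, 95% interval 0.05 to 0.26, edgeR adjusted p = 0.0251). With total count scaling the adjusted p was 0.297 (log2 0.08), and without si3m replicate 1 it was 0.198 (log2 0.13), which ended the call, and the adjusted p ran from 0.00226 to 0.297 over 15 alternatives.

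Loxl1, known for its part in renewing elastic fibres, had 33.4 and 50.8 CPM in siNT and 59.6 and 65.6 CPM in si3m. The siNT replicates lay farther apart than the nearest values of the groups. It rose 1.49-fold (log2 0.57, SE 0.17, 95% interval 0.21 to 0.94, edgeR adjusted p = 0.0210). The rise rested on siNT replicate 1, without which the log2 fold change was 0.30 (adjusted p = 0.174). Without siNT replicate 2 it was 0.91, and without si3m replicate 2 it was 0.51 (adjusted p = 0.0608), with a range of 8.08e-06 to 0.174 over the alternatives.

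Loxl2, which crosslinks collagen IV and fibrillar collagens, had 32.9 and 28.5 CPM in siNT and 62.6 and 60.9 CPM in si3m. Each si3m library was well above each siNT library. The rise of 2.02-fold, from 30.7 ± 3.11 to 61.8 ± 1.20 CPM (SD, n = 2 each), had a log2 value of 1.01 (SE 0.15, 95% interval 0.69 to 1.33, edgeR adjusted p = 1.19e-04). Among the counts of the 3 oxidases, Loxl2 held 4.79% and 4.02% in siNT and 7.45% and 7.60% in si3m. Lox went from 89.6% ± 1.09 to 84.9% ± 0.877 (SD, n = 2 each). The share of Loxl1 overlapped between the groups.

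**Figure D3:**
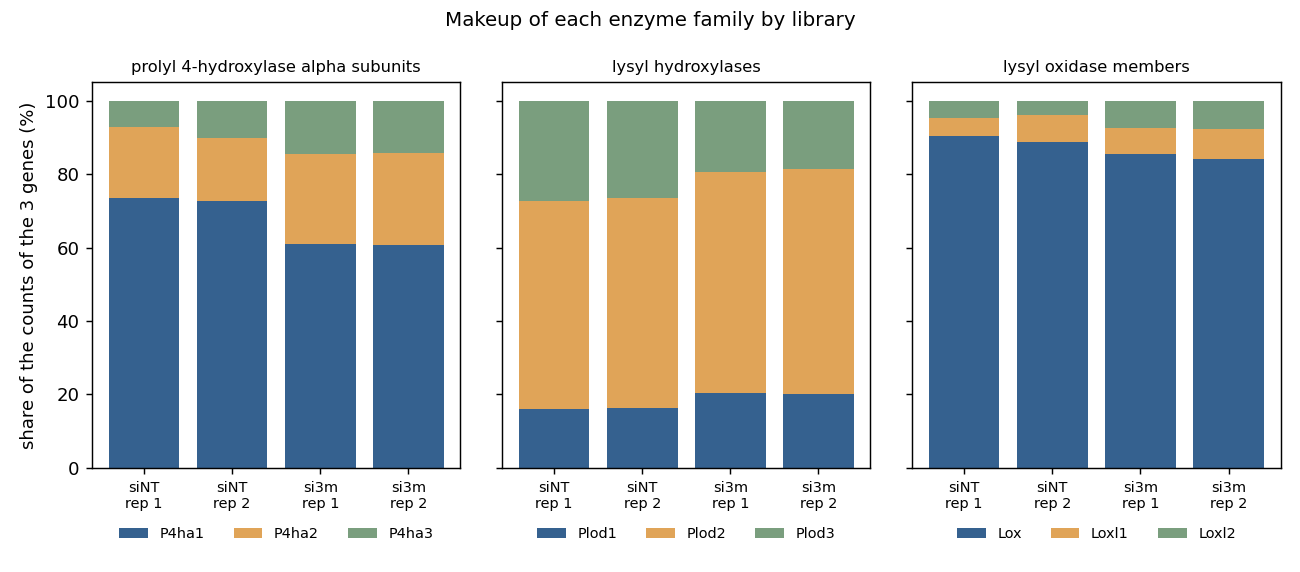
Stacked bars of the share of counts (%) that each gene held among the 3 genes of its family, with 1 bar per library. The P4ha1 part is shorter in both si3m libraries (61.0% and 60.8%) than in siNT (73.6% and 72.7%), and the Plod3 part is likewise shorter.

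The fibrillar collagen genes Col1a1, Col1a2 and Col3a1, which encode substrates of these enzymes, also rose. Col5a2, another fibrillar chain and more abundant than Col3a1 in both groups, fell from 1266 ± 37.2 to 1111 ± 29.0 CPM (SD, n = 2 each). It was named after its values were seen. Counts of Col1a1, Col1a2 and Col3a1, the chains of collagens I and III, together made up 6170 ± 52.8 CPM of the library total in siNT, against 10175 ± 202 CPM for si3m libraries (SD, n = 2 each). The 10 genes together took 3178 and 3173 CPM of the library total in siNT and 3166 and 3081 CPM in si3m, both si3m values being the lower. With TMM scaling the direction turned, with sums of 3105 and 3092 CPM in siNT and 3239 and 3206 CPM in si3m. Per 100 counts of those 3 collagen genes, the 10 genes had 51.2 and 51.7 counts in siNT and 30.7 in both si3m libraries, 1.68 times as many in siNT. This ratio was formed after the values were seen. It was 1.53 when all 7 tested fibrillar chains served as the denominator.

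By gene, the ratio to collagen was lower in both si3m libraries for P4ha1, Plod1, Plod2, Plod3, Lox and Serpinh1. Serpinh1 went from 21.3 and 20.6 counts per 100 collagen counts in siNT to 11.8 and 11.9 in si3m. Plod3 had 2.46 and 2.63 in siNT and 0.881 and 0.848 in si3m, 2.94 times as many in siNT. P4ha2, P4ha3 and Loxl1 overlapped between groups on this scale, with P4ha2 at 1.73 ± 0.170 and 1.61 ± 0.0523 (SD, n = 2 each). Loxl2 was higher in both si3m libraries, at 0.542 and 0.476 against 0.594 and 0.584. A ratio within a library shows unequal change and not which of its parts changed.

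**Figure D4:**
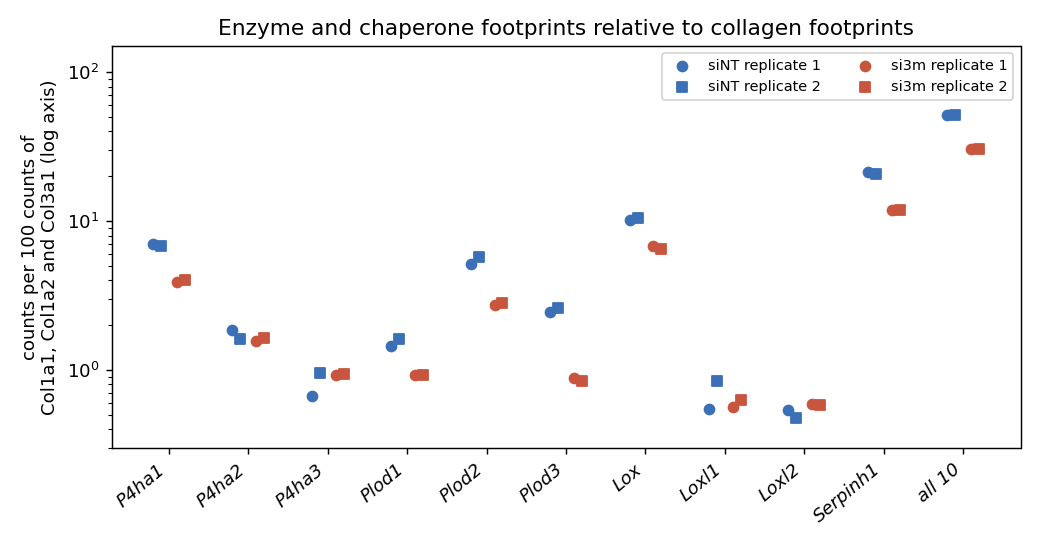
Counts of each gene, and of all 10 together, per 100 counts of Col1a1, Col1a2 and Col3a1 in the same library (log axis), with 1 point per library. The sum of the 10 is at 51.2 and 51.7 in siNT and at 30.7 in si3m, while the points of P4ha2, P4ha3 and Loxl1 overlap.

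Of the fibroblast markers, 9 of 9 tested were higher in si3m, 3 of them being Col1a1, Col1a2 and Col3a1 themselves. Dcn, another of those tested, had 0 counts in both siNT libraries and 24 and 20 in si3m. Only its si3m counts let it be tested. The 12 markers summed to 8269 and 8252 CPM of the library total in siNT and to 13190 and 12780 in si3m, and the 9 that are not collagen genes to 2061 and 2119 in siNT and 2871 and 2750 in si3m. Tcf21 had 0 counts in each library. The 6 smooth muscle markers summed to 3239 and 3218 CPM in siNT and to 3566 and 3572 in si3m, with Acta2 higher, Tagln lower and 4 not passing. The 6 macrophage markers summed to 10.2 and 13.0 CPM in siNT and to 1.38 and 0.892 in si3m. Adgre1, the only one with enough counts to be tested, had 24 and 34 counts in siNT and 4 and 0 in si3m. It was lower, but only its siNT counts let it be tested. Cd163 was at 0. The 6 endothelial markers overlapped between groups, at 3.57 and 5.74 CPM in siNT and 3.45 and 3.87 in si3m, with Cdh5 at 0. In these bulk samples more cells of a type and more footprints per cell cannot be told apart, and the part of these markers in the results for the 10 genes was not tested.

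Across 10 lists of other genes of the pathway, 71 were tested, of which 23 rose (32.4%) and 14 fell (19.7%), beside 14.0% higher and 13.9% lower among all tested rows. Eln, among the 23, and Tgm2, among the 14, had enough counts for the test in 1 group only. The counts of each list stand beside the same background. Partners of the hydroxylases in the endoplasmic reticulum were counted from a list of 12. Of 10 tested, 4 rose and none fell in edgeR (0 at an unadjusted p under 0.05 and 0 in DESeq2; median log2 0.03, beside 0.02 over all tested rows). P4hb, which completes the prolyl 4-hydroxylase tetramer, rose 1.27-fold, from 556 ± 17.3 to 704 ± 17.8 CPM (SD, n = 2 each), with a log2 value of 0.34 (SE 0.050, edgeR adjusted p = 9.36e-05). Ppib, the cyclophilin B of the prolyl 3-hydroxylase complex, rose 2.08-fold (log2 1.06, SE 0.068), and P3h3 and P3h4, partners of lysyl hydroxylase 1, rose 1.97-fold and 1.67-fold. The call of P3h4 was lost without siNT replicate 2 (adjusted p = 0.160), without si3m replicate 1 (0.0521), without si3m replicate 2 (0.136) and with total count scaling (0.0541). Without siNT replicate 1, 1 gene of this list was lower. Neither P3h1, the catalytic subunit (log2 -0.03), nor its partner Crtap (log2 0.01) passed; both were named after their values were seen.

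Among 9 tested genes for the export of procollagen, 1 was higher and 2 were lower (median log2 0.03), a share close to that of all tested rows (27.8% called). Mia3 (TANGO1), which loads procollagen into large carriers, rose 1.24-fold (log2 0.31, SE 0.067). The coat proteins Sec13 and Sec23a fell 1.51-fold and 1.24-fold, the latter lost without siNT replicate 2 (adjusted p = 0.139) and without si3m replicate 1 (0.0801). Of 5 tested genes for the removal of propeptides, 2 rose and none fell in edgeR (0 at an unadjusted p under 0.05 and 0 in DESeq2; median log2 0.28). Bmp1, the C-propeptidase that also activates lysyl oxidase, rose 1.52-fold (log2 0.61, SE 0.12, edgeR adjusted p = 0.00166). Adamts2, an N-propeptidase at 4.79 ± 1.85 and 10.4 ± 2.37 CPM (SD, n = 2 each), had a log2 value of 1.11 and lost its call without siNT replicate 1 (adjusted p = 0.153), without si3m replicate 2 (0.299), with total count scaling (0.0588), in DESeq2 (0.0737) and with thinned counts (0.0583).

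The other lysyl oxidases, Loxl3 and Loxl4, also rose. Loxl3 was 1.52-fold higher (log2 0.60, SE 0.12), and Loxl4 1.29-fold (log2 0.37). Loxl4 lost its call without siNT replicate 2 (adjusted p = 0.124), without si3m replicate 1 (0.0526) and with total count scaling (0.0549). Tgm2, a transglutaminase that crosslinks matrix proteins by another chemistry, fell at low counts, from 26 and 22 in siNT to 8 and 6 in the deeper si3m libraries (log2 -2.66, SE 0.60, edgeR adjusted p = 0.00354). Pxdn, which crosslinks collagen IV, had a log2 value of -0.05 and did not pass.

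Fibrillar collagens and collagen IV are substrates of these enzymes. Of 7 tested fibrillar chains 4 rose and 1 fell (median log2 0.63). Col3a1 rose 2.50-fold, Col5a1 1.84-fold and Col1a1 1.78-fold, and Col5a2 fell by 0.19 on the log2 scale (SE 0.041, edgeR adjusted p = 0.00261; chosen after its value was seen). Of 3 tested chains of collagen IV, the collagen of basement membranes, none rose in edgeR (0 at an unadjusted p under 0.05 and 0 in DESeq2) and 2 fell (median log2 -0.24). Col4a2 had a log2 value of 0.05 and did not pass, turning to -0.028 with total count scaling. Col4a1 fell 1.36-fold (log2 -0.44, SE 0.067) and Col4a5 1.18-fold, the latter lost without siNT replicate 1 (adjusted p = 0.279), without si3m replicate 1 (0.119), without si3m replicate 2 (0.0683) and in DESeq2 (0.0502). Of 7 tested genes of elastic fibres 6 rose, Eln among them (median log2 0.46, the same with Eln at the bound given below). Emilin1 rose 1.62-fold, Fbln5, which presents elastin to the oxidases, 1.55-fold, Mfap5 1.38-fold and Fbn1 1.34-fold. Ltbp4, named after its values were seen, had both si3m libraries below both siNT libraries. Its log2 value was -0.26 (SE 0.11, edgeR adjusted p = 0.0878), and it passed as lower only with total count scaling. Elastin itself (Eln, named after its values were seen) had 2 and 0 counts in siNT and 34 and 14 in si3m. With siNT set to a floor of 3 fragments (6 counts) over the group, si3m was at least 4.25-fold higher. Only its si3m counts let Eln be tested. It was not tested with a filter of 50 counts in 2 libraries, thinned counts or counts divided by 2. In each of these settings 5 of 6 tested genes of the list rose.

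**Figure D5:**
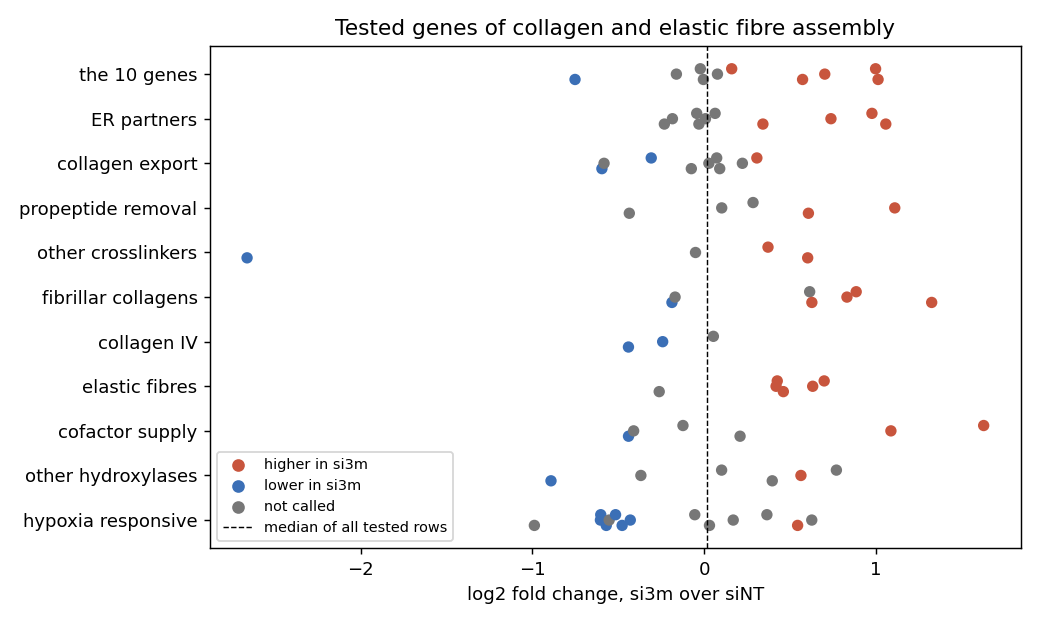
Log2 fold change of each tested gene, si3m over siNT, by list, with 1 point per gene; red and blue mark genes that passed the edgeR test higher or lower, grey those that did not, the dashed line marks the median of all tested rows, and Eln is left out. Elastic fibre and fibrillar collagen genes lie mostly to the right of the line, hypoxia-responsive genes mostly to its left, and the 10 genes on both sides.

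The hydroxylases use iron, 2-oxoglutarate and ascorbate, and lysyl oxidases use copper. Among 6 tested genes for the supply of these cofactors, Slc23a2, an ascorbate transporter, fell 1.36-fold, from 201 ± 7.54 to 148 ± 7.90 CPM (SD, n = 2 each), with a log2 value of -0.44 (SE 0.073, edgeR adjusted p = 2.82e-04). Slc25a11, the mitochondrial carrier of 2-oxoglutarate, rose 3.09-fold (log2 1.63, SE 0.29) and Atox1, a copper chaperone, rose 2.12-fold, a call lost without si3m replicate 1 (adjusted p = 0.0986). The copper transporter Slc31a1 had a log2 value of -0.41 and an adjusted p of 0.0506, and it passed under 8 of 15 alternatives. The list's median log2 was 0.04.

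Other hydroxylases of the same chemistry, and genes that respond to hypoxia, were counted because P4ha1, P4ha2, Plod2, Lox and Loxl2 are known hypoxia targets. Of 6 other hydroxylases tested, 1 rose and 1 fell (median log2 0.25). Egln1, the oxygen sensor that marks hypoxia-inducible factors for decay, fell 1.86-fold (log2 -0.89, SE 0.24) and Asph rose 1.48-fold. Both calls were lost without si3m replicate 2 (adjusted p = 0.130 and 0.124). Of 14 tested hypoxia-responsive genes, 6 fell and 1 rose (median log2 -0.45). Pgk1, a glycolytic kinase, fell 1.49-fold (log2 -0.57, SE 0.049), Hk2 1.52-fold, Vegfa 1.43-fold and Eno1 1.35-fold. Without siNT replicate 1, and without si3m replicate 1, 2 genes of this list were higher.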

How the data were processed

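The submitters deposited raw counts per gene symbol, 1 file per library, in whole numbers with no normalization. Per the submitters' processing notes, Trimmomatic 0.40, HISAT2 2.2.1, featureCounts, limma, DESeq2 and build rn6 were used; what each did, the annotation, strandedness and the handling of multi-mapping reads were not given in the sources used here. Reads from genes that overlap on opposite strands are therefore uncertain. Of counts other than 0, 94.9% to 97.3% per library were even numbers, so counting error was computed on deposited counts divided by 2.

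R 4.3.3 and edgeR 4.0.16 were used for the tests (rows kept by filterByExpr at a minimum count of 10, TMM scaling, glmQLFit, glmQLFTest; two-sided, Benjamini-Hochberg over 12672 rows, threshold 0.05). Fold changes are si3m over siNT; the SE is the log2 fold change over the square root of F. The code was tested on simulated data. The members and lists were chosen with earlier results of these data known. Text names all 10 members, Eif3m, and up to 4 genes per list with the smallest p; others are marked. Of 91 entries in the pathway lists, 89 matched a row.

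Alternatives were DESeq2 1.42.0, other scalings and filters, robust quasi-likelihood, thinned or divided counts, protein-coding rows only, the replicate block and leaving out each library. Symbols were matched to RefSeq genes of GRCr8, which is not the build of the files, for 22794 of 31038 rows.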

Additional observations from a re-analysis of the deposited data

How the results depend on the processing

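P4ha2, P4ha3, Loxl2 and Plod3 kept their call and direction in all 15 alternatives. Between 4 and 5 of the 10 genes were higher. The count of lower genes went from 1 to 2, Plod2 being added, with DESeq2 size factors, total count scaling, robust quasi-likelihood, the stricter filter of 50 counts in 2 libraries, the replicate block, thinned counts, counts divided by 2 and protein-coding rows only, and ranged from 1 to 2 when 1 library was left out. Only the sign of values that did not pass turned: P4ha1 to 0.012 (upper quartile scaling), 0.0168 (no low-count filter) and 0.0083 (thinned counts), Plod1 to -0.0041 and Col4a2 to -0.028 (both total count scaling). Leaving out 1 library gave -0.034 to 0.033 for P4ha1, -0.0532 to 0.017 for Serpinh1 and -0.0971 to 0.0055 for Pxdn. The cause was not tested. Tgm2 had no value under the stricter filter. Over all rows, 1771 were higher and 1757 lower, 50.2% of the calls higher, which total count scaling moved to 1428 and 2217, or 39.2%.

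No sign of pairing by replicate number was seen: the differences between replicates 1 and 2 in the 2 groups had a correlation of -0.01 over 11297 genes. This value cannot show whether the samples were prepared as pairs, which the labels do not say. With the replicate block 5 of the 10 genes were higher and 2 lower. Median chi-square between replicates was 1.40 (siNT) and 1.48 (si3m) times counting noise, so no pair was treated as a repeat deposit of 1 library; this does not show separate cultures. The low counts of Loxl1, Loxl2 and P4ha3 in siNT, 112 to 224, limit the precision of their changes.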

Other observations

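The miR-29 family, known to repress collagens and some of their modifying genes, was looked up after the other values were seen. Its members share a seed (bases 2 to 8), shown in capitals in the RefSeq mature sequences, printed to show how alike the copies are.
rno-miR-29a-3p: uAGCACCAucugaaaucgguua
rno-miR-29b-3p: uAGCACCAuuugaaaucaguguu
rno-miR-29c-3p: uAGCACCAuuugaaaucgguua

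Mir29a and Mir29c had 0 counts in each library, and Mir29b1 had 2 counts in 1 siNT library and 0 in the others. Mir29b2 had 14 and 16 counts in siNT and 12 and 6 in the deeper si3m libraries (log2 -1.65, SE 0.65, edgeR adjusted p = 0.0732), which did not pass. Only its siNT counts let Mir29b2 be tested. Mir29b1 and Mir29b2 give the same mature sequence, so their separate counts are uncertain. Levels and activity of the mature microRNAs were not analysed here, and low counts in these libraries do not show their absence.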
